A study of Mus musculus with 8 samples.

Results

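The MHC class II presentation genes form the set of 10 mouse genes described here: H2-Aa, H2-Ab1 and H2-Eb1, Cd74, H2-DMa, H2-DMb1 and H2-DMb2, H2-Oa and H2-Ob, and Ciita. They were chosen by symbol, without use of their values, and matched to Ensembl identifiers through GENCODE mouse release M21. All 10 were among the 52636 genes of the deposited count table, and all 10 passed the filter on low counts that left 17261 genes for testing. The RNA came from unsorted immune cells of spleens and lymph nodes, taken from mice aged 35 to 55 days that showed no disease signs. The cells had been stimulated for 4 days toward a mixed TH1/TH17 state with anti-CD3 (1 μg/ml), IL-23 (20 ng/ml), TGF-β (4 ng/ml), IL-6 (20 ng/ml) and IL-12 (3 ng/ml). All groups shared this culture. The 8 libraries were labelled as TCR1640 males, TCR1640 females, SJL/J males and SJL/J females, with 2 libraries in each of the 4 groups. TCR1640 mice are SJL/J mice with a receptor transgene whose T cells recognise myelin, and SJL/J mice served as their wild type; the promoter of the transgene is not named in the labels. The comparisons ask how cells of males differ from those of females within a strain label, and how cells under one strain label differ from those under the other within a sex.

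MHC class II molecules hold peptides from endocytosed proteins at the surface of B cells, dendritic cells and macrophages, where CD4 T cells read them. H2-Aa and H2-Ab1 encode the paired alpha and beta chains of I-A, and H2-Eb1 encodes the beta chain of I-E. Cd74, the invariant chain, escorts new class II molecules to the endosome and leaves a fragment, CLIP, in the groove. H2-DM, made of an H2-DMa chain and an H2-DMb chain, removes CLIP and edits the peptides, and H2-O, made of H2-Oa and H2-Ob, inhibits H2-DM and is known mainly from B cells. Ciita is the transactivator that class II transcription depends on, and mouse T cells largely lack class II even when activated. SJL/J mice carry the s haplotype of the class II region, which, like the b haplotype of the reference strain, makes no I-E alpha chain. How far strain differences in the polymorphic exons changed the share of reads assigned to each gene was not tested.

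Promoter sequence was drawn on because class II genes are known to be switched on together through a conserved upstream module. RefSeq promoters (250 bases before to 50 after the start site, GRCm38.p6) were searched for 7 of the members, in 8 entries. Cd74 was left out of the search, and H2-Ab1 and Ciita had no promoter entry. The motifs were GCAAC, from the core of the X box, and ATTGG, the Y box core (CCAAT read on the other strand). Members were searched for the pair on the gene's strand only, whereas the background over all promoters took either strand. In 4 members GCAAC was followed by ATTGG with 30 to 33 bases from start to start, and these promoters are shown first. In H2-DMb1 and H2-DMb2, shown after them, ATTGG was present without GCAAC at that distance, and neither of the 2 entries for H2-DMa held the pair. Each stretch is 55 bases, 5′ to 3′ on the gene's strand, and capitals mark the 2 motifs.
H2-Aa, chr17:34287860-34287914, minus strand: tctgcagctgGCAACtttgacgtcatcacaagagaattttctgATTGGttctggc
H2-Eb1, chr17:34305765-34305819, plus strand: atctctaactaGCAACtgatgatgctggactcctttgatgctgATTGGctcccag
H2-Oa, chr17:34092293-34092347, plus strand: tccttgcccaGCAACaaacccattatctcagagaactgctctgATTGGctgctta
H2-Ob, chr17:34238805-34238859, plus strand: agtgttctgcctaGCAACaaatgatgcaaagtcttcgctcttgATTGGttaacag
H2-DMb1, chr17:34153087-34153141, plus strand: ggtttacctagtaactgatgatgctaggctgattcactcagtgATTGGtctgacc
H2-DMb2, chr17:34145116-34145170, plus strand: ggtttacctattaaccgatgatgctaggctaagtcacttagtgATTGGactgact
ATTGG on either strand was held by 37.4% of all 32851 promoters of this length, and GCAAC by 35.2%. The spaced pair, on either strand, was held by 66 promoters, or 0.201%. The spacing window was chosen after the members' promoters had been read, so the pair describes them and tests nothing. The distance from ATTGG to the start site ran from 43 bases in H2-Oa to 90 bases in H2-DMb2. The 4 genes with the pair did not move as 1 group below: H2-Oa and H2-Ob were higher under the TCR1640 label, whereas H2-Aa was lower in males.

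Before the values, 3 facts about the libraries bear on every result. Column totals ran from 3765291 to 5116467 counts, and within a group the 2 columns were separated only slightly beyond sampling noise (chi-square per degree of freedom 1.05 to 1.08 within groups, 3.12 to 17.05 between groups). Nothing in the labels says whether they came from separate mice, so each pair was summed and counted as 1 sample, and every comparison of 2 groups has n = 1 on each side. The receptor segments went against the strain labels, since 1 segment took most counts under the label without the transgene. The segment that the transgene uses is not stated here. Trbv2 took 20.6% (95% exact interval 17.8 to 23.5) of beta variable counts in the male and 19.7% (16.6 to 23.1) in the female libraries labelled TCR1640, against 63.1% (56.7 to 69.1) and 58.3% (51.5 to 64.98) in the male and female libraries labelled SJL/J. These shares rest on 798, 605, 249 and 216 beta variable counts, in that order. TCR1640 and SJL/J are therefore names of labels throughout, and each direction given between strains rests on labels that these shares put in doubt. The counting strand is not given in the sources used here. Among 637 coding genes with a single noncoding feature opposite to them, the noncoding feature held more counts in 532, or 83.5% (80.4 to 86.3). Whether the counts were made on the strand opposite to each gene was not tested. How much of a member's count came from reads off its own strand was not tested either. Levels, ranks and percentiles below, of members and list genes alike, are those of the counts as deposited. They may not be those of the gene's own transcript.

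All 10 members were counted in all 8 libraries, at low levels. Scaled to CPM (counts scaled to a fixed library total) and per kilobase of exon, the mean over the 4 summed samples was 14.7 for Cd74, 10.4 for H2-Eb1, 5.96 for H2-Oa and 3.499 for H2-Ab1. The next members lay close together, at 2.28 for H2-DMb2, 2.22 for H2-DMb1, 2.02 for H2-DMa and 1.78 for H2-Aa, and Ciita and H2-Ob were lowest at 0.408 and 0.404 CPM per kilobase. Cd74 thus stood at the 76.3rd percentile of all tested genes by this measure and H2-Ob at the 4.50th percentile. Cd74 was the highest member in all 4 groups. Its level was 12.8 (95% counting interval 11.1 to 14.6) and 12.7 (10.9 to 14.8) CPM per kilobase in TCR1640 males and females, against 18.7 (16.4 to 21.2) and 14.7 (12.8 to 16.9) in SJL/J males and females. H2-Eb1 stood above H2-Oa in both SJL/J groups. In TCR1640 males H2-Eb1 and H2-Oa stood at 9.69 (8.35 to 11.2) and 7.59 (6.21 to 9.18), with overlapping intervals. In TCR1640 females H2-Oa and H2-Eb1 stood at 8.79 (7.12 to 10.7) and 8.75 (7.32 to 10.4) CPM per kilobase with overlapping intervals. In SJL/J females H2-Oa and H2-Eb1 stood apart at 3.93 (2.87 to 5.24) and 11.3 (9.72 to 13.1). The 4 members from H2-DMb2 to H2-Aa were not separable from one another in SJL/J females, where their intervals overlapped. In TCR1640 males H2-DMa and H2-Aa stood apart, at 2.86 (2.32 to 3.49) and 1.09 (0.780 to 1.48). Ciita and H2-Ob were likewise not separable in TCR1640 females, at 0.527 (0.375 to 0.721) and 0.503 (0.311 to 0.769) CPM per kilobase. They stood apart in both male groups and in opposite orders, with Ciita at 0.211 (0.129 to 0.326) and H2-Ob at 0.674 (0.472 to 0.933) in TCR1640 males, against 0.628 (0.462 to 0.836) and 0.237 (0.114 to 0.436) in SJL/J males.

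**Figure D1:**
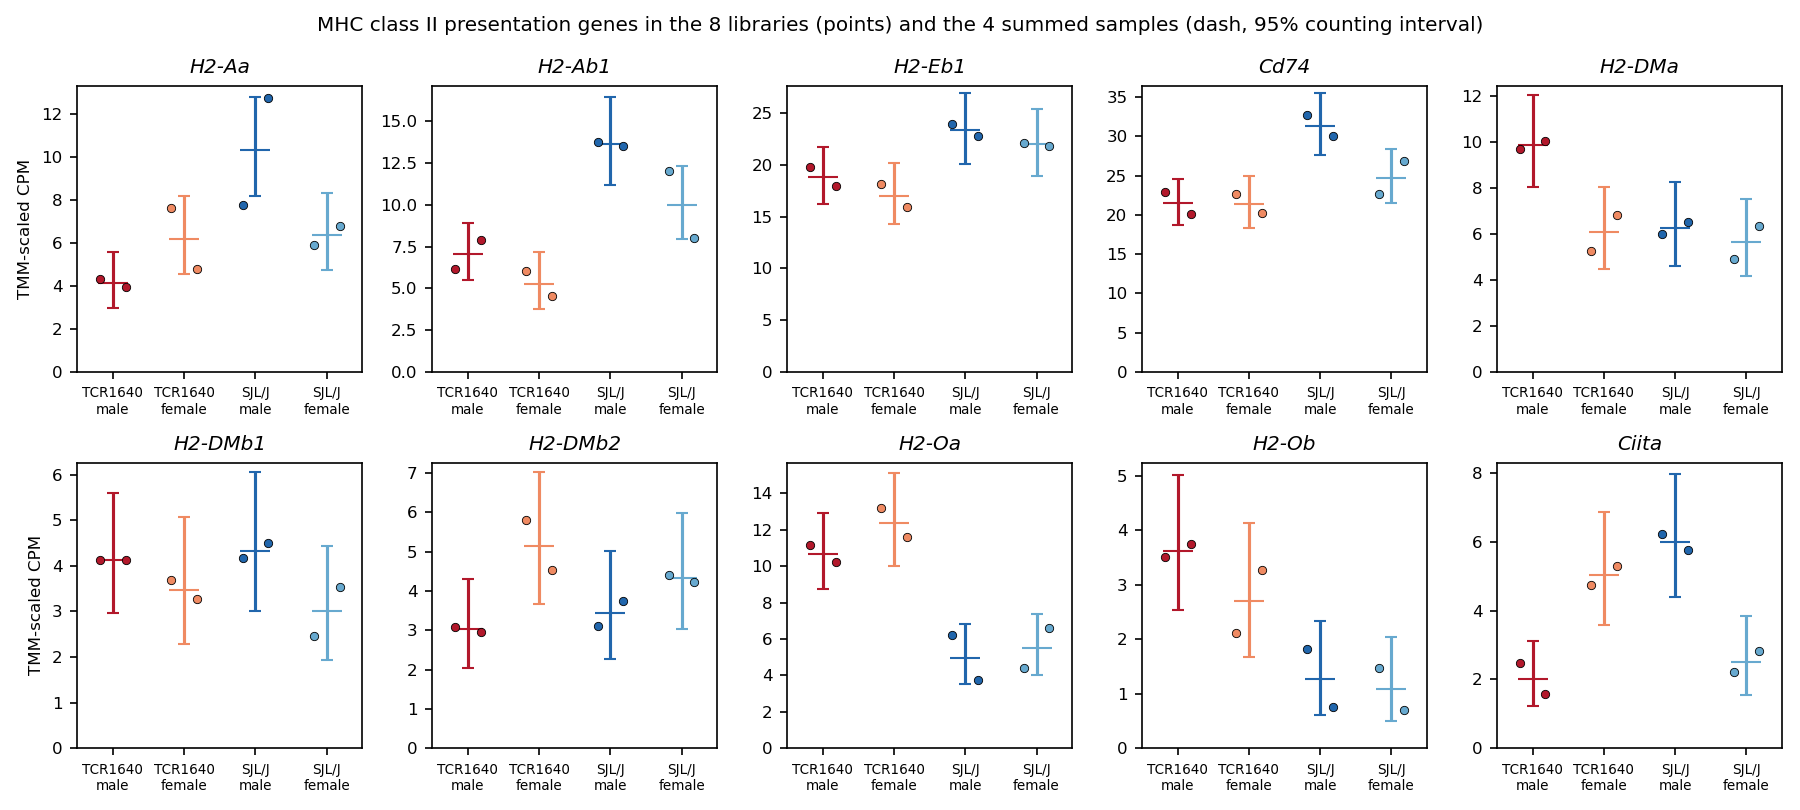
Level of each member, as TMM-scaled CPM on a linear axis from 0, in the libraries labelled TCR1640 male, TCR1640 female, SJL/J male and SJL/J female. Points are the 2 columns of a group, dashes the summed sample, and bars its 95% counting interval. H2-Oa columns lie between 10.2 and 13.2 CPM under the TCR1640 label and between 3.75 and 6.58 CPM under the SJL/J label, and Ciita is high in TCR1640 females and SJL/J males only.

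Between strain labels H2-Ab1 and H2-Aa fell and H2-Oa and H2-Ob rose in the libraries labelled TCR1640 relative to those labelled SJL/J, averaged over the sexes, by edgeR's quasi-likelihood test with Benjamini-Hochberg adjustment over all 17261 genes. That is 2 of 10 members higher, where 13.4% of all genes were called higher, and 2 of 10 lower, where 13.1% were. The shares are close to these backgrounds at this number of members. The members' median log2 fold change was -0.13, against 0.01 for all genes tested. The test had 1 residual degree of freedom with the spread shared across genes, so its p-values say nothing of the spread from mouse to mouse, and DESeq2 on the same 4 samples called none of the members (2 at an unadjusted p under 0.05, H2-Ab1 and H2-Oa).

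Among the chains that hold the peptide, H2-Ab1, the I-A beta chain, had 6.18 and 7.88 CPM in the 2 columns of TCR1640 males and 6.06 and 4.54 CPM in those of TCR1640 females. It had 13.8 and 13.5 CPM in the columns of SJL/J males and 12.03 and 7.99 CPM in those of SJL/J females. Every column labelled TCR1640 lay below every column labelled SJL/J, although the second SJL/J female column was close to the highest TCR1640 one. The log2 ratio, TCR1640 over SJL/J, was -0.95 (95% counting interval -1.41 to -0.50) in males and -0.92 (-1.49 to -0.36) in females. The average fell by 0.93 on the log2 scale (SE 0.23, edgeR adjusted p = 0.000588). Without SJL/J female column 1 the ratio in females was -0.62 (-1.31 to 0.08).

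H2-Aa, the partner chain of H2-Ab1, differed between labels in males. It had 4.33 and 3.94 CPM in TCR1640 males and 7.64 and 4.79 CPM in TCR1640 females, against 7.80 and 12.8 CPM in SJL/J males and 5.89 and 6.81 CPM in SJL/J females. The male columns did not overlap and the female columns did. The log2 ratio was -1.32 (-1.90 to -0.76) in males and -0.04 (-0.64 to 0.55) in females, so the averaged fall of 0.70 on the log2 scale (edgeR adjusted p = 0.0354) describes mainly the male libraries. That call was lost when any of 5 columns was left out, with adjusted p values of 0.141 without TCR1640 female 2, 0.0968 without TCR1640 male 1, 0.187 without TCR1640 male 2, 0.0920 without SJL/J female 2 and 0.312 without SJL/J male 2. Over 15 alternative settings its adjusted p ran from 0.00189 to 0.605. H2-Aa and H2-Ab1 encode partner chains, and in females their ratios stood at -0.04 and -0.92.

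H2-Eb1 had 19.8 and 17.9 CPM in TCR1640 males and 18.2 and 15.9 CPM in TCR1640 females, against 23.9 and 22.8 CPM in SJL/J males and 22.1 and 21.9 CPM in SJL/J females. All 4 columns labelled TCR1640 were lower than all 4 labelled SJL/J, by a small step. Its log2 ratio was -0.31 (-0.61 to -0.01) in males and -0.37 (-0.70 to -0.04) in females, short of the 1.5-fold that counted as a difference here, and the edgeR adjusted p of the average was 0.132. Summed over the 3 classical chains, the log2 ratio was -0.66 (-0.88 to -0.43) in males and -0.43 (-0.68 to -0.18) in females.

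Cd74, the chaperone of these chains, had 22.9 and 20.1 CPM in TCR1640 males and 22.7 and 20.2 CPM in TCR1640 females. It had 32.8 and 30.02 CPM in SJL/J males and 22.6 and 26.8 CPM in SJL/J females. The SJL/J male columns were the high ones, and the female columns of the labels overlapped. The log2 ratio was -0.55 (-0.82 to -0.28) in males and -0.21 (-0.51 to 0.09) in females. The averaged log2 fold change of -0.39 had an edgeR adjusted p of 0.0603, which became 0.0431 without TCR1640 female 1 and 0.0321 without SJL/J female 1 and ran from 0.000793 to 0.582 over 15 alternatives.

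The peptide editor H2-DM did not follow the classical chains. H2-DMa had 9.69 and 10.05 CPM in TCR1640 males, and between 4.91 and 6.81 CPM in the other 6 columns. The TCR1640 male columns stood apart from all others, and the log2 ratio to SJL/J males was 0.66 (0.15 to 1.19), with 0.10 (-0.51 to 0.72) between the female samples. Without SJL/J male column 1 the ratio in males was 0.61 (-0.03 to 1.29). H2-DMa shares 360 bases of exon with Brd2, a transcriptional regulator on the opposite strand whose counts were 636 to 957 in a column against 20 to 51 for H2-DMa. Brd2 itself had a log2 ratio of 0.18 (0.08 to 0.29) in males, and its part in the H2-DMa count was not tested. With the counts of both features added, the ratio in males was 0.19 (0.08 to 0.29), under 1.5-fold.

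H2-DMb1 and H2-DMb2 are near copies of each other, with 94.4% identical bases over 1255 aligned bases of their main transcripts. Of the 1375 stretches of 50 bases in H2-DMb2, 369 also occur in H2-DMb1, so the split of reads between them is uncertain and their sum is given too. H2-DMb1 ranged from 2.46 to 4.50 CPM over the 8 columns and H2-DMb2 from 2.96 to 5.80 CPM, with overlapping labels in both. The log2 ratio of the sum was -0.12 (-0.64 to 0.40) in males and 0.24 (-0.28 to 0.76) in females. For the whole of H2-DM the ratio was 0.28 (-0.08 to 0.64) in males and 0.18 (-0.21 to 0.57) in females. These intervals allow anything from a slightly lower level to one higher by somewhat more than 1.5-fold in TCR1640 males.

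H2-Oa, the alpha chain of the H2-DM inhibitor, had 11.1 and 10.2 CPM in TCR1640 males and 13.2 and 11.6 CPM in TCR1640 females. It had 6.24 and 3.75 CPM in SJL/J males and 4.42 and 6.58 CPM in SJL/J females. The labels did not overlap in any column. The log2 ratio was 1.10 (0.56 to 1.67) in males and 1.16 (0.64 to 1.70) in females, and the average rose by 1.13 on the log2 scale (SE 0.24, edgeR adjusted p = 4.31e-05). The gene shares 321 bases of exon with BC051537 on the opposite strand, which held 347 to 971 counts in a column against 15 to 54 for H2-Oa. BC051537 had nearly the same log2 ratios, at 1.02 (0.90 to 1.14) in males and 0.96 (0.83 to 1.09) in females, and its part in the H2-Oa count was not tested.

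H2-Ob, the beta chain of the same inhibitor, has no annotated exon on the opposite strand. It was counted 17 and 19 times in the columns of TCR1640 males and 8 and 13 times in those of TCR1640 females, against 7 and 3 times in SJL/J males and 6 and 3 times in SJL/J females. On the CPM scale the lowest TCR1640 column, at 2.11 CPM, was above the highest SJL/J column, at 1.82 CPM. The log2 ratio was 1.51 (0.47 to 2.68) in males and 1.32 (0.14 to 2.64) in females, with an averaged rise of 1.41 (SE 0.46, edgeR adjusted p = 0.0121). At so few counts the call depended on single columns. The adjusted p was 0.0527 without SJL/J female 2 and 0.0729 without SJL/J male 2, within a range of 0.00107 to 0.429 over 15 alternatives. The ratio in females was 0.96 (-0.61 to 2.51) without TCR1640 female 2 and 0.88 (-0.48 to 2.48) without SJL/J female 2, and the ratio in males was 0.99 (-0.19 to 2.41) without SJL/J male 2. With both chains summed, H2-O had 142 and 117 counts in TCR1640 males and females against 49 and 55 in SJL/J males and females, and log2 ratios of 1.195 (0.72 to 1.69) in males and 1.19 (0.72 to 1.68) in females.

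Ciita lay on opposite sides of equality in males and females. It had 2.47 and 1.58 CPM in TCR1640 males and 4.74 and 5.30 CPM in TCR1640 females, against 6.24 and 5.75 CPM in SJL/J males and 2.21 and 2.82 CPM in SJL/J females. The high samples were thus TCR1640 females and SJL/J males. The log2 ratio between labels was -1.57 (-2.41 to -0.79) in males and 1.00 (0.19 to 1.83) in females, and the average was -0.31 (edgeR adjusted p = 0.570). The female ratio was 0.91 (-0.08 to 1.89) without TCR1640 female 2 and 0.81 (-0.15 to 1.88) without SJL/J female 1. Ciita shares 329 bases of exon with Dexi on the opposite strand, with 30 to 77 counts in a column against 8 to 24 for Ciita. Dexi had log2 ratios of 0.77 (0.35 to 1.204) in males and 0.57 (0.17 to 0.97) in females. With the counts of both features added, the ratio in males was 0.18 (-0.16 to 0.54), on the other side of equality.

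**Figure D2:**
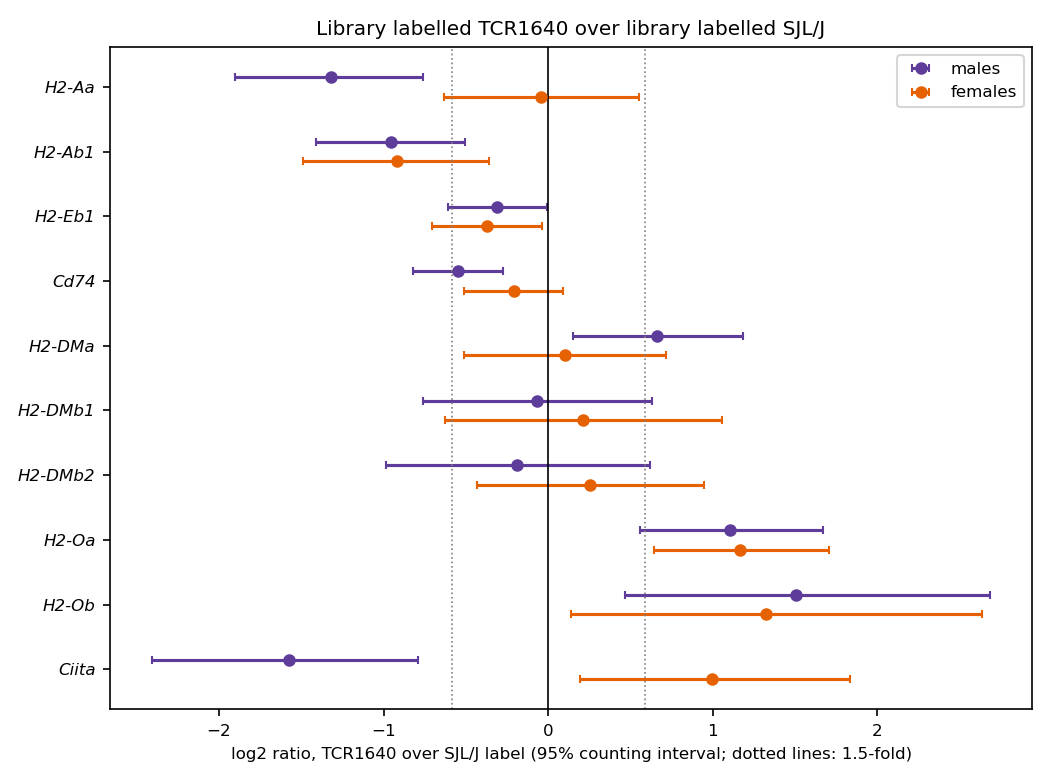
Log2 ratio of each member between strain labels, TCR1640 over SJL/J, in males and in females, with 95% intervals for counting error on linear log2 axes and dotted lines at 1.5-fold. H2-Oa lies at 1.10 and 1.16 and H2-Ab1 at -0.95 and -0.92 in males and females, whereas Ciita lies at -1.57 in males and 1.00 in females.

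By the rule of more than 1.5-fold with a counting interval that excludes equality, 3 members were higher and 3 lower in males under the TCR1640 label. The higher ones were H2-DMa, H2-Oa and H2-Ob and the lower ones H2-Aa, H2-Ab1 and Ciita, where 11.9% of all genes were called higher and 12.7% lower. In females 3 were higher (H2-Oa, H2-Ob and Ciita) and 1 was lower (H2-Ab1), against 9.99% and 10.7% of all genes. The members' median log2 ratio was -0.25 in males and 0.16 in females, with -0.00 and 0.02 for all genes. These are differences between single samples, with no replicate check.

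The balance of the roles within a sample needs no scaling between libraries. Of the counts in H2-O and H2-DM together, H2-O took 45.7% (95% exact interval 40.0 to 51.4) in TCR1640 males and 50.6% (44.0 to 57.3) in TCR1640 females, against 30.8% (23.7 to 38.6) in SJL/J males and 33.7% (26.5 to 41.6) in SJL/J females. The TCR1640 intervals lay above the SJL/J intervals within males and within females. Relative to the presenting chains and Cd74 the gap was wider, with H2-O at 21.7% (18.6 to 25.1) and 23.2% (19.6 to 27.2) of these counts in TCR1640 males and females, against 7.36% (5.49 to 9.61) and 9.48% (7.22 to 12.2) in SJL/J males and females. The classical chains and Cd74 made up 60.7% (57.3 to 64.0) and 58.9% (55.03 to 62.7) of all member counts in TCR1640 males and females, and 75.0% (71.9 to 77.9) and 74.0% (70.7 to 77.2) in SJL/J males and females. These shares were chosen after the values had been seen. Most H2-O counts were H2-Oa (106 of 142 in TCR1640 males and 39 of 49 in SJL/J males), which BC051537 overlaps, and Brd2 overlaps H2-DMa. The part of either feature in these shares was not tested. The share of H2-O in H2-O and H2-DM in SJL/J males was 23.4% without column 1 and 37.8% without column 2.

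**Figure D3:**
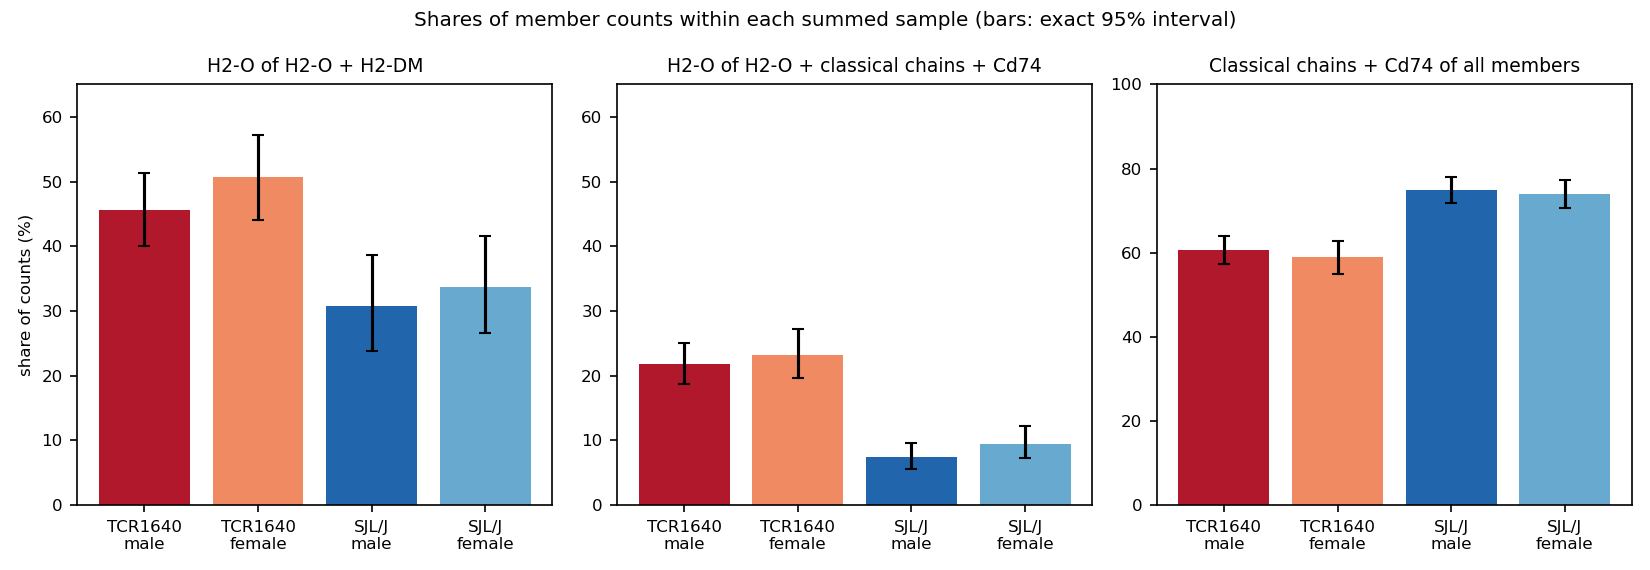
Shares of member counts in each of the 4 summed samples, in percent from 0, with exact 95% intervals for counting error as bars. The H2-O share of H2-O, classical chain and Cd74 counts is 21.7% and 23.2% in TCR1640 males and females, and 7.36% and 9.48% in SJL/J males and females.

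Between the sexes no member passed the test when the labels were averaged. The count of 0 of 10 by edgeR (0 also at an unadjusted p under 0.05, and 0 by DESeq2) stands against 0.139% of all genes higher and 0.962% lower in males. The smallest adjusted p was 0.561, for H2-Ab1. The members' median log2 fold change, male over female, was 0.15, with 8 members above 0.

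Within the TCR1640 label, male over female, 1 member was higher (H2-DMa) and 2 were lower (H2-DMb2 and Ciita), where 2.65% of all genes were called higher and 5.19% lower. Within the SJL/J label 2 were higher (H2-Aa and Ciita) and 0 lower, where the backgrounds were 2.89% and 3.88%. The members' summed level was 84.8 CPM in TCR1640 males and 84.7 CPM in TCR1640 females, a log2 ratio of 0.00 (-0.15 to 0.15). It was 104.9 CPM in SJL/J males and 85.1 CPM in SJL/J females, a ratio of 0.30 (0.15 to 0.45), so the SJL/J male sample was the one that stood above the other 3.

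Ciita had the widest gaps between the sexes. Its log2 ratio, male over female, was -1.32 (-2.17 to -0.51) under the TCR1640 label and 1.25 (0.48 to 2.07) under the SJL/J label, from the column values given above, which did not overlap between the sexes within either label. The difference of these ratios was -2.57 (-3.64 to -1.49). Dexi, opposite to it, had ratios of -0.12 (-0.48 to 0.23) and -0.33 (-0.80 to 0.14). With Dexi added to Ciita the ratios were -0.32 and 0.14 and their difference was -0.46 (-0.94 to 0.03).

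H2-Aa pointed the same way as Ciita under each label. Its ratio was -0.58 (-1.22 to 0.05) under TCR1640 and 0.70 (0.18 to 1.23) under SJL/J, with a difference of -1.28 (-2.06 to -0.50). The SJL/J call was lost without either of 2 columns: the ratio was 0.29 (-0.40 to 0.97) without SJL/J male 2 and 0.60 (-0.03 to 1.26) without SJL/J female 1. The difference was -0.86 (-1.74 to 0.03) without SJL/J male 2 and -0.91 (-1.84 to 0.02) without TCR1640 female 1, and the ratio under TCR1640 was -0.89 (-1.61 to -0.15) without TCR1640 female 2. H2-Aa and Ciita were the 2 members called lower in this difference, with 0 higher, where 5.75% of all genes were called lower and 4.68% higher.

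Of the other members, H2-Ab1 stood at 0.42 (-0.16 to 1.01) and 0.45 (0.03 to 0.88) in the TCR1640 and SJL/J labels. Its SJL/J value was 0.77 (0.20 to 1.37) without SJL/J female 1. H2-Eb1 stood at 0.15 (-0.18 to 0.48) and 0.09 (-0.22 to 0.39), and Cd74 at 0.00 (-0.30 to 0.31) and 0.34 (0.07 to 0.62). The H2-O sum stood at -0.08 (-0.44 to 0.29) and -0.08 (-0.67 to 0.50), with H2-Oa at -0.21 (-0.62 to 0.20) and -0.15 (-0.81 to 0.50) and H2-Ob at 0.42 (-0.39 to 1.27) and 0.24 (-1.21 to 1.71). H2-DMa was higher in males under TCR1640, at 0.70 (0.19 to 1.24), against 0.15 (-0.46 to 0.76) under SJL/J. It stood at 0.54 (-0.09 to 1.21) under TCR1640 without female column 1. With Brd2 added the ratio under TCR1640 was 0.13 (0.03 to 0.23). H2-DMb2 under TCR1640 stood at -0.77 (-1.50 to -0.05), with intervals that reached equality without female column 1, male column 1 or male column 2 (-0.59, -0.81 and -0.71). The sum with its near copy H2-DMb1 stood at -0.27 (-0.77 to 0.23).

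**Figure D4:**
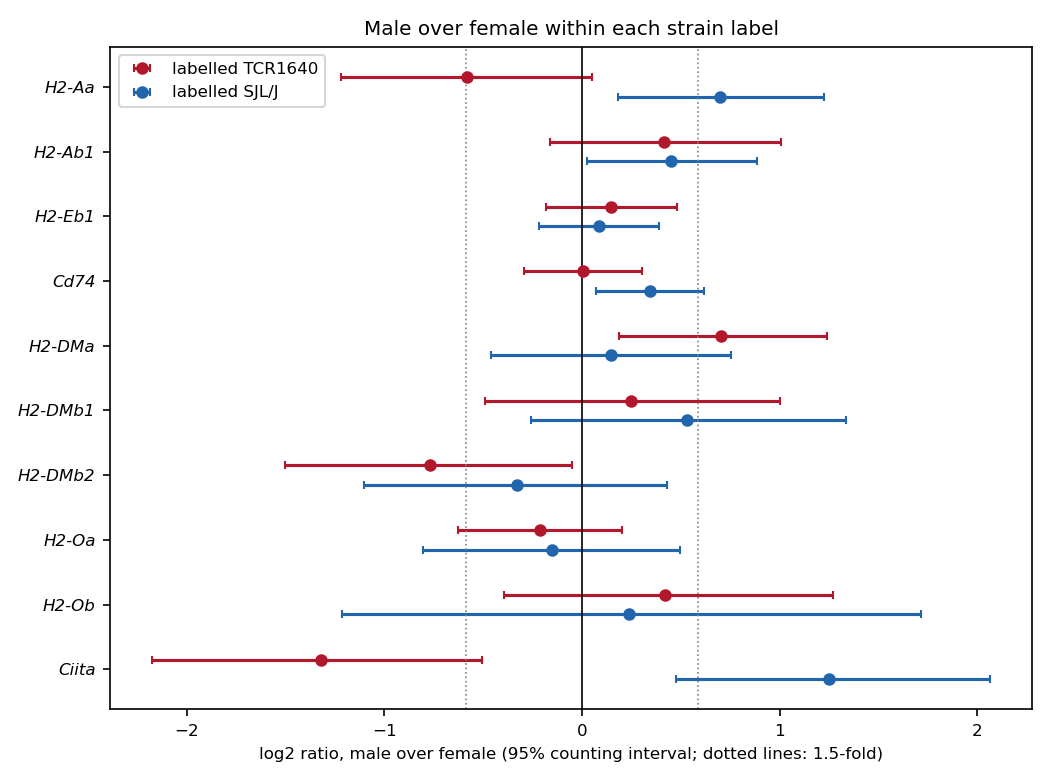
Log2 ratio of each member between the sexes, male over female, within the TCR1640 and the SJL/J label, with 95% intervals for counting error and dotted lines at 1.5-fold. Ciita lies at -1.32 under TCR1640 and 1.25 under SJL/J, and the intervals of H2-Oa and H2-Ob include 0 under both labels.

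Of 12 factors that bind class II promoters with or beside Ciita, or act on the Ciita gene, 4 rose under the TCR1640 label averaged over sexes and 1 fell, by the edgeR test with adjusted p, and the median was 0.13. Over all genes 13.4% rose and 13.1% fell in this comparison, which is the background for each list below. Subunits of the RFX and NF-Y complexes, which bind the X and Y boxes, were not among these 5. Creb1, which binds the X2 box, rose by 0.46 on the log2 scale (adjusted p = 0.0208). Irf1, an interferon-induced factor that acts on the Ciita gene, had 361 and 401 CPM in TCR1640 males and females against 200.4 and 231 CPM in SJL/J males and females. It was higher in both TCR1640 samples and rose by 0.82 (adjusted p = 1.3e-10), although Gm17334 lies opposite to it. Irf8, a factor of B cells and dendritic cells, rose by 0.41. Rfxank, a subunit of the RFX complex with 1499 to 2027 counts per sample, had a log2 fold change of -0.01. Spi1, the PU.1 factor of myeloid and B cells, was nearly absent under the TCR1640 label, with 3 and 1 counts in males and females against 40 and 29 in SJL/J males and females. Its ratio was -4.08 (-6.41 to -2.43) in males and -4.76 (-10.1 to -2.16) in females.

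Interferon gamma is the classic inducer of Ciita outside B cells and dendritic cells, and 3 of the 6 genes of its signalling rose between labels and 0 fell, where 13.4% of all genes rose and 13.1% fell. These were the receptor chain Ifngr2 (0.92), the kinase Jak1 (0.84) and the feedback inhibitor Socs1 (1.31), and the list's median was 0.58. Ifngr1, the other receptor chain, had a log2 fold change of 0.12 (adjusted p = 0.544). Ifng itself had 113 and 107 counts in TCR1640 males and females against 167 and 95 in SJL/J males and females. The log2 ratio between labels in males was -0.90, which was called lower. Its male over female log2 ratio was -0.28 (-0.67 to 0.12) under TCR1640 and 0.90 (0.53 to 1.28) under SJL/J, with a difference of -1.18 (-1.70 to -0.65). Ifngr2 had sex ratios of -0.60 (-1.10 to -0.10) and 0.38 (-0.34 to 1.11) under the TCR1640 and SJL/J labels. The difference lay on the other side of 0 for Jak1, at 0.34 (0.17 to 0.51), and for Socs1, at 0.47 (0.06 to 0.87). Any part of these genes in the values of Ciita or H2-Aa was not tested. Averaged over the labels, 0 of the 59 tested genes in these and the marker lists passed the sex test by edgeR (12 at an unadjusted p under 0.05) or by DESeq2 (0 at an unadjusted p under 0.05).

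Among 8 genes that prepare the peptide or cut the invariant chain, 2 rose between labels and 1 fell. Ctss, the protease that makes the last cut of Cd74 in B cells and dendritic cells, rose by 1.01 (adjusted p = 1.11e-08), with 33.1 and 35.2 CPM in TCR1640 males and females against 18.7 and 15.1 CPM in SJL/J males and females. The protease Ctsd rose by 0.37 and Ctsz fell by 0.39, and Ctsb had a log2 fold change of 0.09 (adjusted p = 0.679). Sppl2a, which clears the remaining stub of Cd74 from the membrane, had a sex ratio of -0.97 (-1.33 to -0.62) under TCR1640 and 0.10 (-0.25 to 0.44) under SJL/J, and a ratio of -0.70 (-1.07 to -0.34) between labels in males. Ifi30, the lysosomal thiol reductase, was higher in SJL/J males than in SJL/J females, at 1.21 (0.46 to 2.01). Of 5 genes for turnover and receptors of class II, 2 rose and 2 fell. March8, a ligase of the family that takes class II from the surface, fell by 1.89, and Cd83, which shields class II from such ligases, rose by 1.40. Cd4, the coreceptor that binds class II, fell by 0.52 and Lag3, an inhibitory receptor that binds class II, rose by 0.69. March1, the ligase known to ubiquitinate class II in B cells and dendritic cells, stood at -0.92 (-1.71 to -0.15) between the sexes under TCR1640. The remaining class II genes of the region, H2-Eb2 and the pseudogene H2-Ea-ps, had at most 5 counts in any sample and were not tested.

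**Figure D5:**
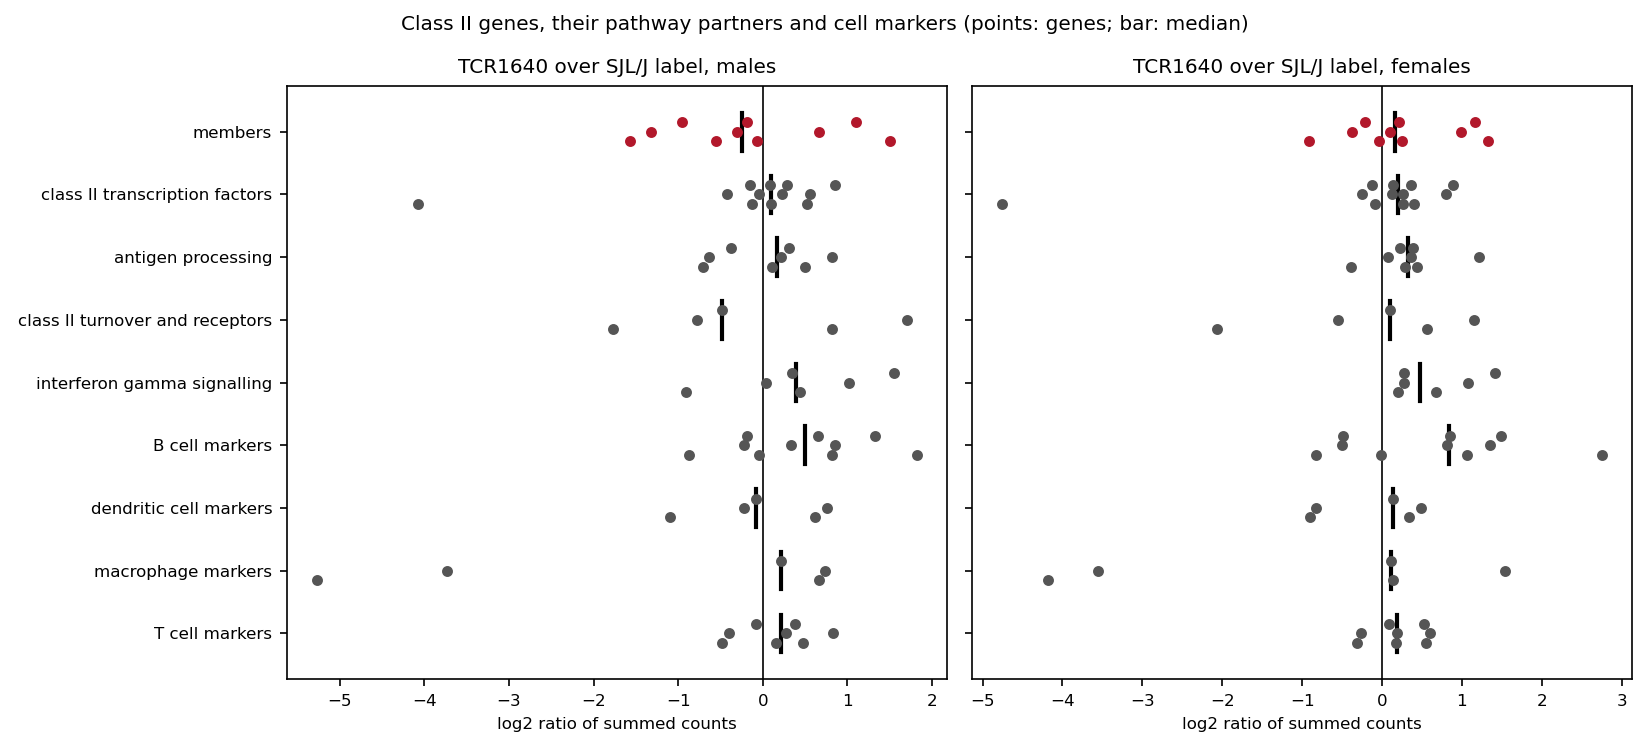
Log2 ratio between strain labels, TCR1640 over SJL/J, of the members (red) and of the genes in each list (grey), in males on the left and females on the right; bars are list medians. The member medians are -0.25 in males and 0.16 in females, and members lie on both sides of 0.

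Markers of T cells, which largely lack class II in mice, had higher summed levels than markers of B cells. T cell markers summed to 1311 and 1203 CPM in TCR1640 males and females and to 1137 and 1009 CPM in SJL/J males and females, with 8 of 8 tested, 3 called higher between labels (Cd3e, Cd3d and Cd3g) and 2 lower (Trac and Cd28). B cell markers (12 genes, 10 tested) summed to 61.0 and 59.8 CPM in TCR1640 males and females against 44.7 and 38.3 CPM in SJL/J males and females. In this list 4 of 10 rose between labels and 1 fell, where 13.4% of all genes rose and 13.1% fell. Cd79a and Cd79b, the signalling chains of the B cell receptor, rose by 0.73 and 2.18, the B cell factor Pax5, which noncoding features overlap on the opposite strand, by 0.95 and the adaptor Bank1 by 1.06, whereas Cd22 fell by 0.70. The summed level of the list was higher where H2-Oa and H2-Ob were higher and where H2-Ab1 was lower, and its part in either was not tested. In bulk samples, fewer cells of a type and less RNA per cell cannot be told apart. Among the list genes named above, features on the opposite strand also overlap exons of Rfxank, Jak1, Ctsb, Ctsz, Ifi30, March1, Cd3e and Cd22. Their part in these counts was not tested.

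Of 12 macrophage genes 5 were tested, 0 rose and 2 fell. Lyz2, lysozyme of macrophages, had 2 and 3 counts in TCR1640 males and females against 61 and 38 in SJL/J males and females, and Cd163, a scavenger receptor, had 6 and 4 against 63 and 78. The other tested macrophage genes stood above equality, with averaged log2 fold changes of 1.10 for Itgam (adjusted p = 0.0659), 0.44 for Cd68 (0.310) and 0.17 for Csf1r (0.357). Itgam was called higher in females, at 1.53 (0.44 to 2.75), and Cd68 in males, at 0.73 (0.08 to 1.41). C1qb had 0 counts in all samples, and 6 of the 12 genes had at most 10 counts in all. The summed level of the list was 143 and 141 CPM in TCR1640 males and females and 137 and 139.8 CPM in SJL/J males and females, so it did not follow Lyz2 and Cd163. Most of this sum was Csf1r, with 133 and 129.9 CPM in TCR1640 males and females and 114 and 119.7 CPM in SJL/J males and females, which Hmgxb3 overlaps on the opposite strand. Of 11 dendritic cell genes 5 were tested, with 1 called higher (Batf3, 0.56) and 1 lower (Fscn1, -0.96). Their sum was 357 and 411 CPM in TCR1640 males and females against 370 and 373 CPM in SJL/J males and females, and 4 of the 11 had at most 10 counts in all. Most of this sum was Xcr1, a chemokine receptor, with 2514 to 3013 counts per sample. H2-Ab1, Lyz2, Cd163 and Spi1 fell under the TCR1640 label, Itgam and Cd68 did not, and the part of macrophages in the classical chain counts was not tested.

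Genes with a profile like that of the members were sought over the 4 summed samples, by the Pearson r to the members' mean log2 CPM among 362 genes of sufficient level and range. The highest were Gpr15 (r = 0.70), Gm15674 (0.48), Gm28370 (0.47), Gpr65 (0.45) and Gvin1 (0.43). These values are low for 4 points. Members were not alike among themselves either. Over the same 4 samples r was 0.99 between H2-Ab1 and H2-Eb1 and 0.92 between H2-Oa and H2-Ob, and -0.96 between H2-Ab1 and H2-Oa, from points that share libraries and depth.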

How the data were processed

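Per the labels, stranded mRNA libraries were made from 500 ng of total RNA (KAPA kit). The deposited values are raw counts, in whole numbers, for each Ensembl identifier. The tools listed in the submitters' processing notes are bcl2fastq 2.17, Bowtie2 and HTSeq, with mm10 as the genome. Annotation release and strand setting: not given in the sources used here. Symbols and positions came from GENCODE M21, and promoters from RefSeq (GRCm38.p6).

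Columns of a group were compared by chi-square (minimum of 20 counts per gene, without Gm43333) and summed. Averages over sex or label came from an additive edgeR 4.0.16 quasi-likelihood fit (TMM, filterByExpr with its minimum count of 10, two-sided, Benjamini-Hochberg threshold 0.05) on the 4 summed samples, under R 4.3.3. On simulated data the fit recovered seeded changes. Changes were seeded only in genes above a level that H2-Ob, Ciita, H2-DMb1 and H2-DMb2 do not reach on average. Recovery below that level was not tried. That simulation had 1 shared dispersion and no sex difference that depended on label, so it does not test the members' calls. Comparisons of 2 groups are ratios of TMM-scaled summed counts with exact 95% counting intervals and no p-values. Differences of sex ratios have 95% counting intervals from a normal approximation on the log scale, with counts under 3 set to 3. Alternatives were RLE and upper-quartile factors, TMM on genes without opposite-strand overlap, no filter, DESeq2 1.42.0, 8 separate columns with and without a replicate block, a 2-fold limit, opposite-strand features added, and each column left out.

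The members, lists, marker sets and rules were chosen with earlier results of these data known. Named from the lists are genes with at least 20 counts that were called in a comparison or have 1 of the 2 largest counts of their list, and the 5 genes most like the members in profile (mean log2 CPM of at least 5, range of at least 1). The values of 1 list gene are not reported here.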

Additional observations from a re-analysis of the deposited data

Results flagged for a closer look

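Ciita lay on opposite sides of equality between the sexes under the 2 strain labels. Its log2 ratio, male over female, was -1.32 in the libraries labelled TCR1640 and 1.25 in those labelled SJL/J. Both columns of the male group lay below both columns of the female group under the TCR1640 label, and above them under the SJL/J label. This difference was not tested, since each group holds 1 sample. Dexi, which overlaps Ciita on the opposite strand, had log2 ratios of -0.12 under TCR1640 and -0.33 under SJL/J.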

How the results depend on the processing

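In females between labels 4 were called, 2 at a 2-fold limit and 2 to 4 with a column left out. In males 6 were called, 4 with opposite-strand features added, 4 at 2-fold and 5 to 7 with a column left out. Between the sexes under TCR1640 3 were called, 1 with opposite-strand features added, 1 at 2-fold and 1 to 4 with a column left out. Under SJL/J 2 were called, 1 with opposite-strand features, 1 at 2-fold and 1 to 2 with a column left out. For the difference of the sex ratios the count was 2, 1 with opposite-strand features and 1 to 2 with a column left out. Ciita in males reversed, to a log2 ratio of 0.18 between labels, when opposite-strand features were added, since Dexi holds more counts. Averaged over sexes, 4 members were called, 0 by DESeq2 and 2 to 5 with a column left out, and H2-Aa had an adjusted p of 0.0593 with TMM on non-overlapped genes. Over all genes the strain label gave 4572 calls, 1410 by DESeq2 and 3553 to 4330 with a column left out. Sex gave 190 calls, 108 with upper-quartile factors, 98 with TMM on non-overlapped genes, 118 with no filter, 7 by DESeq2 and 8 to 143 with a column left out; the causes were not tested.

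Replicate numbers did not pair the samples: the correlation of deviations between columns of the same number ran from -0.0007 to 0.0287 over 10467 genes. With the 8 columns as separate samples, the replicate block gave 7857 genes called for strain label and 2875 for sex, against 7821 and 2759 without the block, and 1 member called between the sexes under SJL/J either way. Those fits treat near-identical columns as replicates. They called 6 members between labels, adding H2-Eb1 and Cd74.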
